A study of Mus musculus with 3 samples.

Results

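Nonproductive TCR β rearrangements are joined β-chain genes that cannot encode a complete receptor chain. They were found as the TRB clonotypes whose translated CDR3 carried a frame break or a stop codon, and they made up 11238 of the 168230 clonotypes in 3 libraries. The libraries came from CD4, CD8 and double-negative (DN) T cells, the last lacking both coreceptors, which were FACS sorted from the spleen of 1 MRL.lpr mouse aged 16 weeks. MRL.lpr is a lupus-prone strain with the recessive lpr mutation, and all 3 subsets carried it. Each library was made from the mRNA of 1000000 cells. With 1 library per subset and no control strain among them, each test below compares classes of clonotypes within 1 library or compares the 3 libraries, and has no replicate check. A clonotype is a unique CDR3 nucleotide sequence with its best V, D and J gene, and its size is its number of reads. The subsets could not be checked against CD4 or CD8 transcripts because the libraries hold TCR sequences only.

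A developing thymocyte joins a D to a J segment and then a V segment to that DJ join, while nucleases trim the ends and terminal transferase adds bases. Many joins lose the reading frame, and a cell may then rearrange its other β allele. The failed allele makes no receptor and is carried passively by a cell selected through its productive one, while its mRNA is a target of nonsense-mediated decay. The V, D and J genes of such joins therefore serve in this field as a record of rearrangement before selection.

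The largest nonproductive clonotypes of these libraries are shown first. In the sequences below, capitals mark the bases that continue neither the common start of that V gene nor the common end of that J gene, or, in the one in-frame sequence, the stop codon.

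TRBV4 TRBJ2-1, out of frame: tgctgagcagttcttc
TRBV31 TRBJ1-2, out of frame: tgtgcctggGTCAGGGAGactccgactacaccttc
TRBV31 TRBJ2-7, out of frame: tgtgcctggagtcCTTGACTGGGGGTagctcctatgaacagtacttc
TRBV31 TRBJ2-1, out of frame: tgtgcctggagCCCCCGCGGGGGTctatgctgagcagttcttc
TRBV5 TRBJ2-2, out of frame: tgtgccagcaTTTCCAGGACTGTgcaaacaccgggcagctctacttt
TRBV31 TRBJ1-4, out of frame: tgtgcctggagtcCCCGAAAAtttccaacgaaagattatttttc
TRBV4 TRBJ1-2, in frame with a stop: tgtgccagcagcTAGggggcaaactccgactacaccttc

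These 7 were the 3 with the most reads in any library. The 16-base TRBV4 TRBJ2-1 clonotype held 357 reads of the CD4, 164 of the CD8 and 323 of the DN library, and all of its bases matched the common end of TRBJ2-1, with no V or D bases of its own. The TRBV31 TRBJ1-2 clonotype belonged mostly to 1 library, with 193 CD4 and 6 CD8 reads and none of 194290 in the DN library, which allows a share of up to 0.00154%. TRBV31 TRBJ2-7 held 181 reads in CD4 but 2 in CD8 and 3 in DN T cells. TRBV31 TRBJ2-1 was instead large in CD8, with 167 reads against 3 in CD4 and 9 in DN T cells. The TRBV5 clonotype was of similar size everywhere, with 66 CD4, 52 CD8 and 88 DN reads. The last 2 had their most reads in DN T cells. TRBV31 TRBJ1-4 held 261 reads in DN against 12 in CD4 and 36 in CD8, and the TRBV4 stop clonotype 192 against 8 and 24. In CD8 T cells they ranked 5 and 8 among the nonproductive clonotypes.

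Nonproductive clonotypes were 3506 of the 44807 TRB clonotypes in CD4 T cells (7.82%, 95% Wilson interval 7.58 to 8.08%), 3972 of 81212 in CD8 T cells (4.89%, 4.74 to 5.04%) and 3760 of 41948 in DN T cells (8.96%, 8.69 to 9.24%). They held less of the reads, 5.18%, 3.74% and 4.71% in the same order. Out-of-frame joins made up most of them, 3308 in CD4, 3704 in CD8 and 3528 in the DN library. The other 198, 268 and 232 were in frame but held a stop codon. Library totals were 133667 to 194290 TRB reads. Without molecular identifiers the reads are not independent molecules, the intervals hold counting error alone, and the p-values treat each clonotype as independent.

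Nonproductive clonotypes were smaller than productive ones in all 3 libraries. The productive in-frame clonotypes averaged 3.07 reads in CD4, 1.88 in CD8 and 4.85 in the DN library, and the nonproductive ones 1.98, 1.42 and 2.43 reads. A single read stood behind 75.5% of the nonproductive and 60.9% of the productive clonotypes in CD4 T cells (ratio 1.24, p = 2.1e-69 by a two-sided Fisher's exact test). These shares were 83.3% and 68.2% in CD8 (ratio 1.22, exact p = 6.97e-99) and 71.4% and 55.0% in DN T cells (ratio 1.30, p = 3.7e-86). Clonotypes over 10 reads were scarcer among the nonproductive ones, at 1.57% against 3.77% in CD4 (ratio 0.416, exact p = 1.15e-13), 0.453% against 1.01% in CD8 (ratio 0.449, p = 1.88e-04) and 2.13% against 6.72% in DN T cells (ratio 0.317, p = 7.06e-36).

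**Figure D1:**
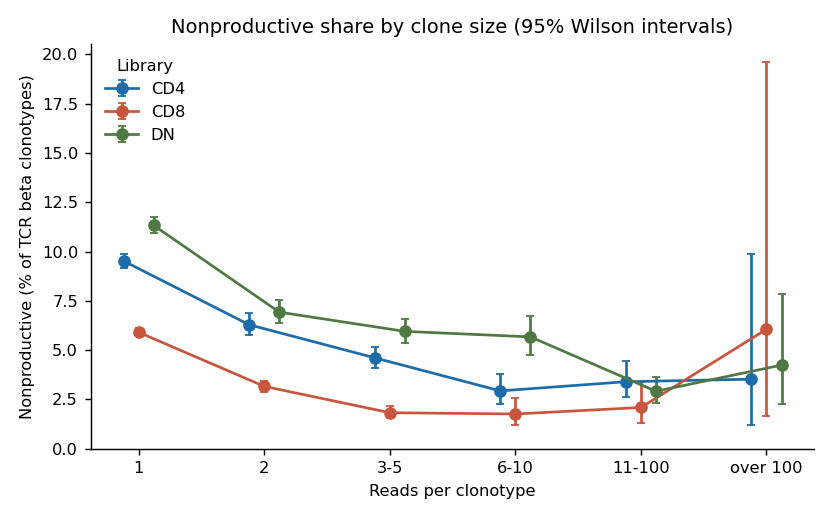
Share of TRB clonotypes that were nonproductive (y axis, %) against the reads per clonotype (x axis, 6 bins) in the CD4, CD8 and DN libraries, with 95% Wilson intervals. Among single-read clonotypes the share was 9.52% in CD4, 5.91% in CD8 and 11.3% in the DN library, above all middle bins, while the last bin rests on 85, 33 and 212 clonotypes and reaches 6.06% in CD8.

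The nonproductive share fell with size from 9.52% of single-read clonotypes to 3.40% of those with 11 to 100 reads in CD4, from 5.91% to 2.09% in CD8 and from 11.3% to 2.92% in the DN library, as the plot of share by clone size shows. Above 100 reads it was 3 of 85 clonotypes in CD4, 2 of 33 in CD8 and 9 of 212 in the DN library. The 10 largest nonproductive clonotypes held 17.0%, 10.5% and 18.2% of the nonproductive reads of CD4, CD8 and DN T cells. All 10 in the DN library were also found in both other libraries, against 8 of 10 for CD8 and 5 of 10 for CD4.

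V gene use separated the classes most. Of 24 V genes tested in each library, the share differed at an adjusted p under 0.05 for 21 in CD4 (87.5%), 21 in CD8 (87.5%) and 20 in the DN library (83.3%), by two-sided Fisher's exact tests with Benjamini-Hochberg adjustment over all genes and libraries. Of these, 11, 12 and 12 were larger (45.8%, 50% and 50%) and 10, 9 and 8 smaller (41.7%, 37.5% and 33.3%) among the nonproductive clonotypes. So many were called that a single call says little, and the sizes carry the comparison. In all 3 libraries 10 genes were larger among the nonproductive clonotypes and 7 were smaller. With single-read clonotypes left out 6 of these 10 and 6 of these 7 were again called in all 3 libraries. Those no longer called in all were TRBV4, TRBV21, TRBV22 and TRBV23 on the larger side and TRBV13-3 on the smaller. TRBV22 had too few clonotypes for a test in CD8 (1 nonproductive and 2 productive) and was called again in CD4 and DN T cells.

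**Figure D2:**
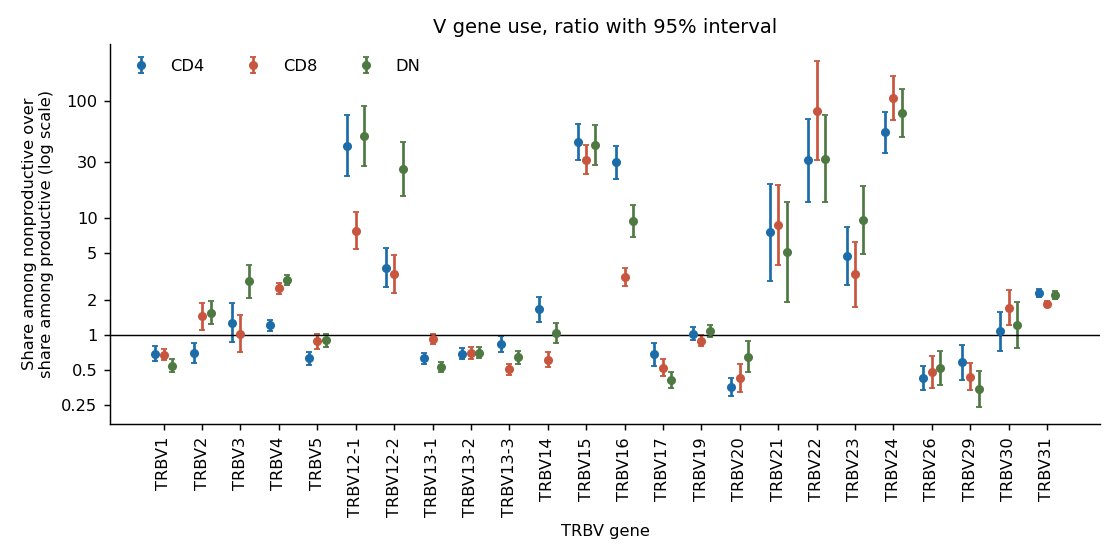
Share of each TRBV gene among nonproductive clonotypes divided by its share among productive clonotypes (y axis, log scale) for the 24 tested genes (x axis) in the CD4, CD8 and DN libraries, with 95% intervals; the line marks 1. TRBV24 lies highest at 53.6, 105 and 78.2, and TRBV26 and TRBV29 lie among the lowest in all 3 libraries.

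The genes furthest apart were ones that productive receptors of this mouse hardly used. TRBV24, the older Vβ17, was the V gene of 132, 130 and 154 nonproductive clonotypes in CD4, CD8 and DN T cells but of only 29, 24 and 20 productive ones. Its share was 53.6 times larger among the nonproductive clonotypes in CD4 (adjusted exact p = 1.25e-115), 105 times in CD8 (adjusted p = 9.56e-143) and 78.2 times in DN T cells (adjusted p = 1.36e-136). Productive use was rare in each library alike, and 82.0%, 84.4% and 88.5% of all TRBV24 clonotypes were nonproductive. TRBV22, which RefSeq calls a pseudogene, had 21, 21 and 22 nonproductive against 8, 5 and 7 productive clonotypes, with ratios of 30.9, 81.7 and 31.9. The classes rest on the CDR3 alone, so an in-frame CDR3 of a pseudogene also counts as productive here. TRBV21 had few of either kind, 7, 9 and 6 nonproductive and 11, 20 and 12 productive, with ratios of 7.50, 8.75 and 5.08. In DN T cells its call was lost among clonotypes with 2 or more reads, where 1 was nonproductive (ratio 2.66, adjusted exact p = 0.362).

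A second group was TRBV12-1 and TRBV12-2 (Vβ5), TRBV16 (Vβ11) and TRBV15 (Vβ12), V segments that superantigens of endogenous mammary tumour viruses remove in the thymus of many mouse strains that express I-E. Together the 4 genes held 355 nonproductive clonotypes in CD4, 331 in CD8 and 316 in the DN library, which was 10.1%, 8.33% and 8.40% of that class. Among productive clonotypes they held 210, 1246 and 144, or 0.508%, 1.61% and 0.377%. The nonproductive shares lay within a narrow range while the productive share was largest in CD8 T cells.

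TRBV15 had ratios that were not called different between the libraries, with 143, 116 and 128 nonproductive against 38, 72 and 31 productive clonotypes in CD4, CD8 and DN T cells (ratios 44.3, 31.3 and 41.9, adjusted exact p = 8.76e-121, 8.92e-101 and 9.22e-103). TRBV16 differed between them, with 129 nonproductive and 51 productive clonotypes in CD4 (ratio 29.8, adjusted exact p = 1e-99), 143 and 889 in CD8 (ratio 3.13, adjusted p = 2.04e-28) and 75 and 81 in DN T cells (ratio 9.40, adjusted p = 1.83e-36). It was the V gene of 0.123%, 1.15% and 0.212% of productive and of 3.68%, 3.60% and 1.99% of nonproductive clonotypes in CD4, CD8 and DN T cells. TRBV12-1 had 49, 41 and 64 nonproductive against 14, 103 and 13 productive clonotypes (ratios 41.2, 7.74 and 50). TRBV12-2 had 34, 31 and 49 against 107, 182 and 19 (ratios 3.74, 3.31 and 26.2). Among clonotypes with 2 or more reads all 4 genes were again called in all 3 libraries, TRBV15 at 77.9, 60.8 and 73.4 and TRBV16 at 67.4, 4.42 and 10.1.

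The largest nonproductive clonotype of each of these genes, with TRBV24, is shown so that the failed joins can be read. Capitals mark the bases between the V-like start and the J-like end.

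TRBV12-1 TRBJ2-7: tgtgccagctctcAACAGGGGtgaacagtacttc
TRBV12-2 TRBJ2-7: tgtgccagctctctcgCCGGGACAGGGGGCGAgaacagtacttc
TRBV15 TRBJ2-7: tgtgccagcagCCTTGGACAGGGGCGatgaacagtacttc
TRBV16 TRBJ2-7: tgtgcaagcagctttacttc
TRBV24 TRBJ1-2: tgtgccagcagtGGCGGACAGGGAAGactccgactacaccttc

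All 5 were out of frame, with CDR3s of 34, 44, 40, 20 and 43 bases, none a multiple of 3. The TRBV12-1, TRBV16 and TRBV24 clonotypes had their most reads in DN T cells (23, 21 and 23), and the TRBV12-2 and TRBV15 clonotypes in CD4 T cells (12 and 26). In 4 of the 5 the V-like start and the J-like end are kept around bases that the files list with TRBD1, while the TRBV16 join has no base between a V-like start and a short J-like end.

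TRBV31 and TRBV4 fall outside the rule for naming genes and were picked after their values were seen, because they were the 2 commonest V genes of nonproductive clonotypes in each library. TRBV31 (Vβ14) lies on the far side of the constant genes and joins by inversion, unlike the other V genes. It led in each library, with 652 in CD4 (18.6%), 811 in CD8 (20.4%) and 577 in the DN library (15.3%), against 8.15%, 11.1% and 7.0% of the productive ones. The ratios were 2.28, 1.84 and 2.19 (adjusted exact p = 9.68e-77, 3.64e-60 and 2.92e-60), and 3.24, 2.51 and 2.84 among clonotypes with 2 or more reads. By reads it held 28.6%, 26.9% and 26.6% of all nonproductive reads, and 6, 5 and 4 of the 10 largest nonproductive clonotypes. TRBV4 (Vβ10) had 348, 364 and 410 nonproductive clonotypes, with ratios of 1.21, 2.50 and 2.94 (adjusted exact p = 0.000786, 1.46e-50 and 3.39e-70). In CD4 T cells the TRBV4 call was lost with 2 or more reads (ratio 1.18, adjusted exact p = 0.161) and with out-of-frame clonotypes alone (ratio 1.09, adjusted p = 0.145).

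On the other side were V genes with a smaller share among nonproductive than among productive clonotypes. TRBV20 (Vβ15) had the lowest ratio in CD4 T cells, with 124 nonproductive clonotypes (3.54%) against 9.80% of the productive ones (ratio 0.361, adjusted exact p = 5.2e-42). Its ratio was 0.432 in CD8 and 0.650 in DN T cells. TRBV29 (Vβ7), listed by RefSeq as a pseudogene of the reference genome, had mostly productive clonotypes here. These were 686, 2385 and 947, against 34, 54 and 32 nonproductive ones (ratios 0.584, 0.440 and 0.343). Whether its V segment is intact outside the CDR3 was not tested. TRBV26 (Vβ3) had ratios of 0.428, 0.482 and 0.519, TRBV17 (Vβ9) of 0.685, 0.526 and 0.412, and TRBV1 (Vβ2) of 0.692, 0.679 and 0.546. TRBV13-3 (Vβ8.1) had 0.837, 0.510 and 0.641.

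Shares within a class add up to a whole, so the large nonproductive shares of some genes lower those of the rest. With TRBV12-1, TRBV12-2, TRBV15, TRBV16, TRBV22 and TRBV24 left out of both classes, TRBV26, TRBV29 and TRBV1 were still called smaller in all 3 libraries. The calls lost were those of TRBV13-3 in CD4 (ratio 0.973, adjusted exact p = 0.801), TRBV17 in CD4 (0.796, adjusted p = 0.0541) and TRBV20 in DN T cells (0.744, adjusted p = 0.0652). In the same setting TRBV31 stood at 2.65, 2.06 and 2.51. TRBV31 and TRBV4 were kept in both classes, so their larger nonproductive shares still lowered those of the rest. Whether TRBV26, TRBV29 and TRBV1 stay smaller without them as well was not tested.

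**Figure D3:**
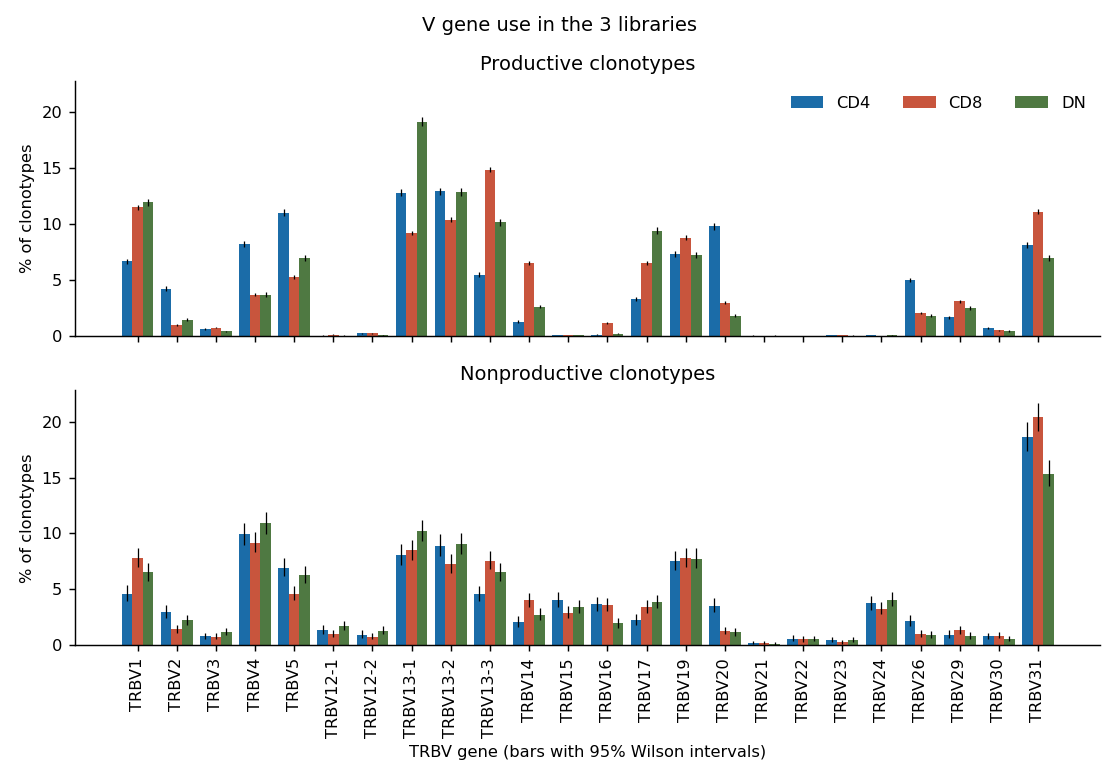
Share of clonotypes (y axis, %) using each TRBV gene (x axis) among productive clonotypes (upper panel) and nonproductive clonotypes (lower panel) of the CD4, CD8 and DN libraries, with 95% Wilson intervals. The libraries lie closer together in the lower panel as a whole, and TRBV31 is the tallest there at 18.6%, 20.4% and 15.3%.

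V gene use of nonproductive clonotypes differed less between the libraries than that of productive ones. The share of clonotypes that would have to change V gene to turn one library's use into another's was 12.3% for CD4 and CD8, 11% for CD4 and DN, and 11.5% for CD8 and DN among nonproductive clonotypes. Among productive clonotypes it was 29.8%, 24.7% and 18.0%, although these larger classes have less sampling noise. Leaving out clonotypes found in more than 1 library and near copies gave 13.3%, 10.6% and 12.7% against 33.1%, 26.9% and 20.2%. TRBV13-1 illustrates this and was picked after its values were seen: it held 12.8%, 9.21% and 19.2% of the productive but 8.07%, 8.48% and 10.2% of the nonproductive clonotypes in CD4, CD8 and DN T cells. The ratio of nonproductive to productive use differed between the 3 libraries for 14 of 24 V genes (58.3%) at an adjusted p under 0.05 in a likelihood-ratio chi-square test of the logistic model, most clearly TRBV16 (adjusted p = 6.81e-37) and TRBV4 (adjusted p = 1.03e-32). With 2 or more reads it differed for 8 of the 16 genes that could be tested (50%).

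J gene use differed little. The share was called different for 4 of 12 J genes in CD4 (33.3%), 5 in CD8 (41.7%) and 5 in the DN library (41.7%), with every ratio between 0.719 and 1.42. Among the nonproductive clonotypes 1 was larger and 3 were smaller in CD4 (8.33% and 25%), 1 and 4 in CD8 (8.33% and 33.3%), and 3 and 2 in DN T cells (25% and 16.7%). TRBJ1-1 was smaller among nonproductive clonotypes in all 3 libraries, at 7.50% against 9.98% in CD4 (ratio 0.752), 6.52% against 8.63% in CD8 (0.756) and 7.53% against 8.79% in DN T cells (0.856). TRBJ1-4 was as well, at ratios of 0.801, 0.719 and 0.832. The TRBJ1 cluster as a whole, the first of the paired D-J-C units, held 29.9% of nonproductive and 36.6% of productive clonotypes in CD4 (p = 2.65e-15, two-sided Fisher's exact test) and 25.1% and 30.7% in CD8 T cells (p = 3.52e-14), but 28.5% and 29.3% in DN T cells (p = 0.329). The cluster as a whole was not compared among clonotypes with 2 or more reads, where its single genes lay on both sides of 1. In CD8 T cells TRBJ1-2, TRBJ1-5 and TRBJ1-6 then stood at 1.27, 1.85 and 1.28. There TRBJ1-1, TRBJ1-3 and TRBJ1-4 stood at 0.955, 0.941 and 0.749. In DN T cells TRBJ1-1, TRBJ1-2, TRBJ1-3 and TRBJ1-5 stood at 1.18, 1.52, 1.26 and 1.82, and TRBJ1-4 and TRBJ1-6 at 0.903 and 0.879. TRBJ2-6, a pseudogene, was listed for 1 nonproductive clonotype each in CD8 and DN T cells and for no productive one.

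Most of these J calls were not made among clonotypes with 2 or more reads. Of the 14 calls in the 3 libraries 3 were made again on the same side, 9 were lost on the same side of 1 and 2 were lost with the ratio on the other side, TRBJ1-6 in CD8 (0.732 to 1.28) and TRBJ1-1 in DN T cells (0.856 to 1.18). Some lost calls kept nearly the same ratio, such as TRBJ1-3 in CD4 (0.770 and 0.767) and TRBJ1-4 in CD8 (0.719 and 0.749). Among the 858, 665 and 1077 nonproductive clonotypes with 2 or more reads, fewer and so less precise, no J gene was called in CD4 (1 at an unadjusted p under 0.05), TRBJ1-5 alone was called in CD8 (ratio 1.85, adjusted exact p = 0.0289), and TRBJ1-2 (1.52), TRBJ1-5 (1.82), TRBJ2-4 (1.45) and TRBJ2-7 (0.780) were called in DN T cells. TRBJ1-1 then stood at 0.878, 0.955 and 1.18 and TRBJ1-4 at 0.953, 0.749 and 0.903 in CD4, CD8 and DN T cells, none called. The ratio differed between the libraries for 2 of 12 J genes (16.7%), TRBJ1-2 and TRBJ2-7, and for all 3 D classes (100%).

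**Figure D4:**
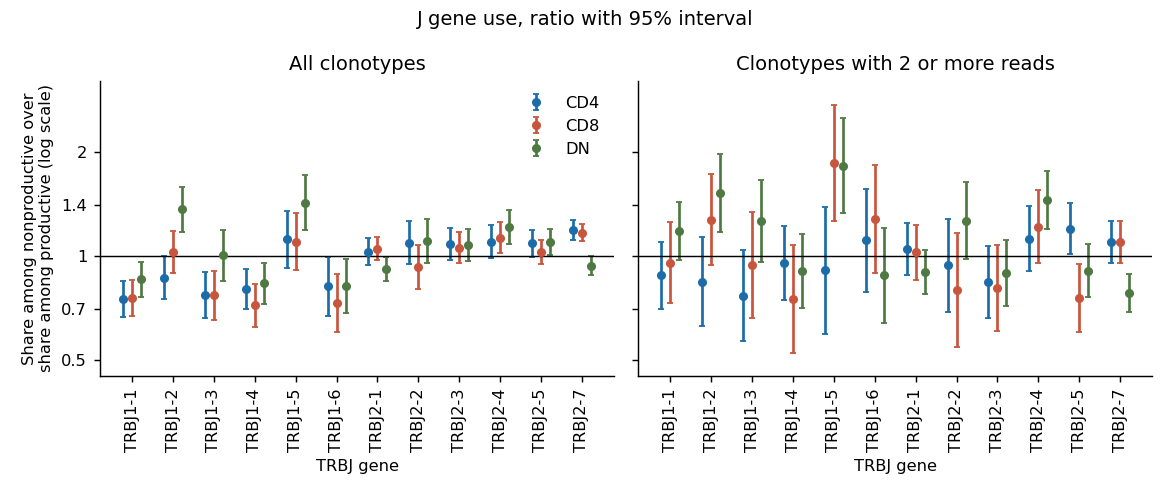
Share of each TRBJ gene among nonproductive clonotypes divided by its share among productive ones (y axis, log scale) with 95% intervals, for all clonotypes (left) and for clonotypes with 2 or more reads (right), in the CD4, CD8 and DN libraries. TRBJ1-1 lies below 1 in all 3 libraries on the left, at 0.752, 0.756 and 0.856, and at 0.878, 0.955 and 1.18 on the right.

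The D segment is a short G-rich core, of which trimming often leaves too little to name. TRBD2 was listed for 38.1% of nonproductive clonotypes in CD4, 45.3% in CD8 and 43.1% in the DN library, 1.32, 1.42 and 1.08 times its share among productive ones (adjusted exact p = 6.25e-29, 5.94e-64 and 7.81e-05). Of the 3 D classes (TRBD1, TRBD2 and none) 3 were called in CD4 (100%), 3 in CD8 (100%) and 2 in the DN library (66.7%). Clonotypes with no D listed were a smaller share of the nonproductive class, at ratios of 0.852, 0.763 and 0.843 (adjusted exact p = 3.45e-07, 9.61e-19 and 3.45e-07). At 2 or more reads this was called in none of the 3 libraries, at 1.09, 0.936 and 0.983 (adjusted exact p = 0.208, 0.427 and 0.841), and had turned in CD4. TRBD1 was at 0.857, 0.990 and 1.15 there, called in CD4 and DN T cells (adjusted exact p = 0.00171 in both) against 0.880, 0.830 and 1.01 among all clonotypes. The TRBD2 difference shrank or turned among clonotypes with 2 or more reads, where it was 1.14 in CD4 (adjusted exact p = 0.0325), 1.07 in CD8 (adjusted p = 0.359) and 0.875 in DN T cells (adjusted p = 0.00319). TRBD2 lies behind the TRBJ1 genes, so that a direct join of the pair is not allowed by gene order, yet 8.0%, 8.22% and 6.90% of nonproductive TRBJ1 clonotypes were listed with it, against 5.45%, 5.08% and 6.36% of productive ones. The D listings thus contain assignments that the order of the genes does not allow, in both classes.

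Some of the nonproductive clonotypes differed by a single base from a larger productive one. With the same V and J gene, 1 changed base and at least 10 times the reads as the definition of a near copy, 187 nonproductive clonotypes in CD4 (5.33%), 103 in CD8 (2.59%) and 328 in the DN library (8.72%) were near copies, against 1.59%, 0.741% and 2.18% of the productive ones. A changed base could be substituted, lost or gained, and a lost or gained base of a productive CDR3 always breaks the frame. Productive near copies thus differ by a substitution and out-of-frame ones by a lost or gained base, so these shares count unlike changes. At 2 times the reads the nonproductive shares were 19.8%, 17.1% and 23.4%. The largest near copy of each library and the clonotype it resembled are shown with the run of G that differs in capitals.

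CD4, TRBV17 TRBJ2-3, 11 reads: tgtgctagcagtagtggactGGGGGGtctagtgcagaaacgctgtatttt
CD4, TRBV17 TRBJ2-3, 213 reads: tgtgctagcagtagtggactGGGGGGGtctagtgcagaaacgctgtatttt
CD8, TRBV13-2 TRBJ2-1, 10 reads: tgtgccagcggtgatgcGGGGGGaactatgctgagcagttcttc
CD8, TRBV13-2 TRBJ2-1, 139 reads: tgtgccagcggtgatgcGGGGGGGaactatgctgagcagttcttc
DN, TRBV1 TRBJ2-5, 15 reads: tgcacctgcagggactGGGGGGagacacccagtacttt
DN, TRBV1 TRBJ2-5, 265 reads: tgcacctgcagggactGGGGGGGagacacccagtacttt

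In each pair the smaller clonotype has 1 G fewer in the same run. Of the out-of-frame near copies, 120 of 165 in CD4, 68 of 91 in CD8 and 231 of 301 in the DN library were 1 base shorter than the larger clonotype, and 95, 49 and 196 of these lost the base within a run of 4 or more G. The other 45, 23 and 70 were 1 base longer, and 37, 18 and 58 of these gained the base within such a run. A run of 5 G stood in 52.4% of single-read out-of-frame clonotypes in CD4, 57.8% in CD8 and 55.0% in the DN library, but in 42%, 42.1% and 43.2% of those with 2 or more reads. Among productive clonotypes with 2 or more reads it stood in 37.7%, 38.6% and 42.4%.

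The out-of-frame lengths were not split evenly between the frames. A random loss of frame leaves a length with a remainder of 1 or 2 after division by 3. Remainder 2, one base short of a codon, was found in 55.1% of out-of-frame clonotypes in CD4 (95% Wilson interval 53.4 to 56.8%), 58.0% in CD8 (56.4 to 59.6%) and 56.4% in DN T cells (54.7 to 58.0%). Among near copies it was found in 72.7%, 74.7% and 76.7%. With the near copies left out it was lower but still above an even split, at 54.2% (52.5 to 56.0%), 57.6% (56.0 to 59.2%) and 54.5% (52.8 to 56.2%). Near copies at 2 times the reads were not left out of this comparison. With 2 or more reads the shares were 50.9%, 51.1% and 49.4%, with intervals that include an even split. Leaving near copies out of these gave 49.8%, 50.1% and 46.7%, and the last interval, that of the DN library (43.6 to 49.8%), lies below an even split. The part of single-base changes in the J, D and frame differences above was not tested.

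**Figure D5:**
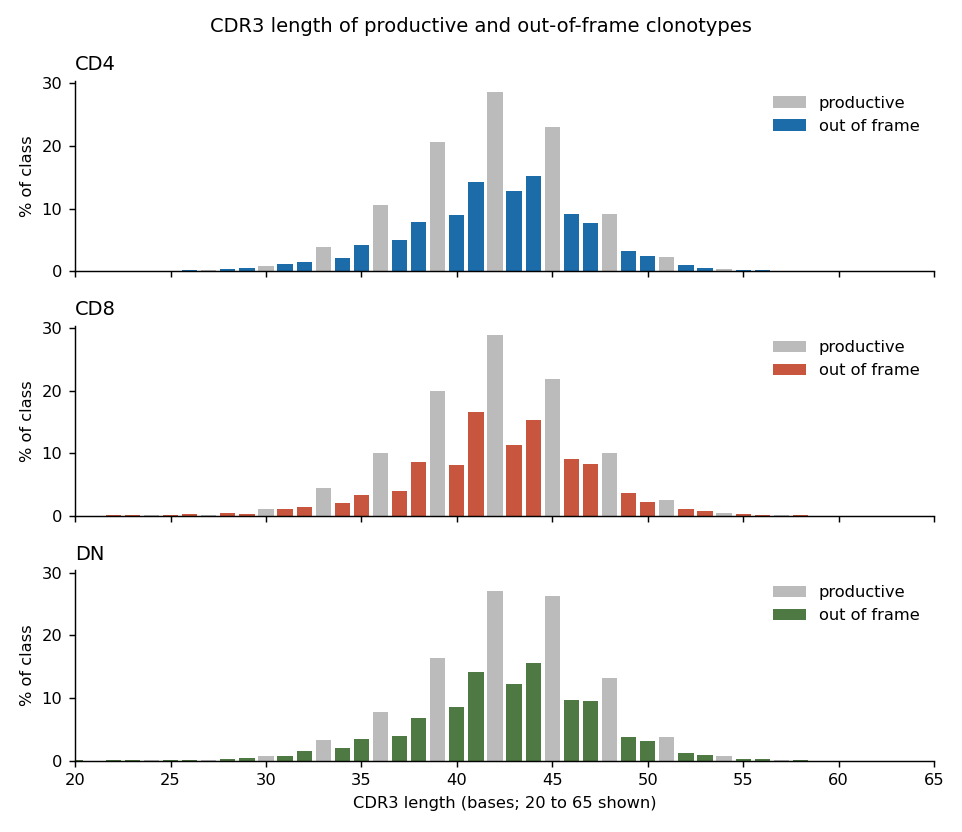
Share of clonotypes (y axis, % of the class) by CDR3 length in bases (x axis) for productive and out-of-frame clonotypes of the CD4, CD8 and DN libraries. Productive lengths are multiples of 3 by definition, both classes centre near 42 or 43 bases, and among out-of-frame lengths 41 and 44 (remainder 2) exceed their neighbours 40, 43 and 46.

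CDR3 lengths of the failed joins were centred like those of productive ones, with a larger SD. The middle of the distribution was as wide in both classes, with quartiles of 40 and 46 bases out of frame and 39 and 45 among productive clonotypes in each library. Out of frame, 16, 14 and 11 CDR3s were longer than 100 bases, up to 257, 197 and 266 in CD4, CD8 and DN T cells, against 2, 1 and 0 productive ones, and the SDs below include them. The mean was 42.7 bases (SD 10.6, n = 3308) in CD4, 42.6 (SD 9.43, n = 3704) in CD8 and 42.9 (SD 9.40, n = 3528) in the DN library out of frame, against 41.8 (SD 4.46), 41.8 (SD 4.56) and 42.6 (SD 4.53) for productive clonotypes, with medians of 43 and 42 in each library. Long CDR3s of at least 50 bases made up 5.08% against 2.84% in CD4 (ratio 1.79, two-sided Fisher's exact test, adjusted p = 1.51e-10), 5.10% against 3.16% in CD8 (1.62, adjusted p = 4.09e-09) and 6.32% against 4.78% in DN T cells (1.32, adjusted p = 0.00018). With 2 or more reads the ratio was 1.52 in CD4 (exact p = 0.0268), 1.22 in CD8 (p = 0.334) and 0.902 in DN T cells (p = 0.545), so the excess of long CDR3s was no longer called in CD8 and DN T cells. Short CDR3s of at most 34 bases were in excess in CD4 (6.47% against 5.10%, ratio 1.27, adjusted exact p = 0.00116) and DN T cells (5.73% against 4.40%, ratio 1.30, adjusted p = 0.000752), while CD8 gave 6.48% against 6.03% (ratio 1.07, adjusted p = 0.259). With 2 or more reads the short excess was 1.44, 1.46 and 1.62 (exact p = 0.00422, 0.0028 and 0.000101).

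The number of bases between the V-like start and the J-like end was not tested. Its median was 11 out of frame in each library, against 10, 10 and 11 for productive joins in CD4, CD8 and DN T cells. The means were 12.1 (SD 10.4), 11.7 (SD 9.28) and 12.1 (SD 9.16) against 10.2 (SD 4.53), 9.98 (SD 4.38) and 10.9 (SD 4.61). These bases contain what was left of the D segment together with added bases, and the V-like and J-like ends were taken from the commonest productive sequences of each gene, not from a reference.

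In-frame clonotypes with a stop formed a small class of their own, with 86.4%, 92.2% and 84.5% of them at a single read. TAA ended 77, 104 and 99 of them, TAG 82, 100 and 70, and TGA 39, 64 and 63 in CD4, CD8 and DN T cells. The fifth residue, where the V segment meets the added bases, was the commonest place of the stop, in 66 of 198, 73 of 268 and 78 of 232. TRBV4 was their most frequent V gene, with 51, 68 and 73 clonotypes, of which 45, 57 and 63 stopped at residue 5. Its share among these clonotypes was 3.14, 6.92 and 8.48 times that among productive ones (adjusted exact p = 4.31e-12, 4.82e-35 and 1.02e-43). The TRBV4 clonotype with TAG shown above is the largest of them in CD8 and DN T cells, with 24 and 192 reads.

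Nonproductive clonotypes were found again in another library less often than productive ones. The same CDR3, V and J gene recurred for 199 in CD4 (5.68% against 13.4% of productive clonotypes, ratio 0.425, p = 1.1e-46), 321 in CD8 (8.08% against 12.2%, ratio 0.663, p = 4.02e-16) and 392 in DN T cells (10.4% against 24.1%, ratio 0.433, p = 8.55e-94, two-sided Fisher's exact tests). Of the DN ones, 290 recurred in CD8 (7.71%) and 168 in CD4 T cells (4.47%), against 7482 (19.6%) and 3586 (9.39%) of the productive DN clonotypes, and the CD8 library holds the most clonotypes to recur in. All 3 libraries held 66 nonproductive and 1871 productive clonotypes. Clone size moved with this result. Among clonotypes with 2 or more reads the ratios were 0.725 in CD4 (exact p = 0.00018), 1.03 in CD8 (p = 0.696) and 0.704 in DN T cells (p = 2.16e-14). Over 10 reads the shares were 40% and 40% in CD4 (exact p = 1), 83.3% and 69.3% in CD8 (p = 0.3) and 80.0% and 90.7% in DN T cells (p = 0.00346). In the DN library the share was smaller at each of these sizes.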

How the data were processed

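TCR libraries were prepared with the Takara SMARTer Mouse TCRα/β kit from sorted splenic CD4, CD8 and DN T cells, 1 library per subset. The authors used MiXCR for alignment and clonotype assembly, and its version, settings and reference build are not given in the sources used here. The deposited tables give a count of reads per clonotype, not normalized, and the deposited fraction equals that count divided by the total of the table. Clonotypes with a TRBV and a TRBJ gene were used (133667, 150874 and 194290 reads); a clonotype with no read may have had a share of up to 3 reads, or 0.00224%, 0.00199% and 0.00154%. A CDR3 string with a frame break or stop made a clonotype nonproductive. Clonotypes, not reads, were counted.

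Genes with at least 5 clonotypes were tested by two-sided Fisher's exact test with Benjamini-Hochberg adjustment at 0.05, and differences between libraries by a likelihood-ratio chi-square test in a logistic model. That test for J and D genes was added after seeing the data. Ratios have 95% log intervals and shares 95% Wilson intervals. Named V genes were those called on the same side in all 3 libraries, up to 6 per side by median ratio, with the superantigen list and pseudogenes with at least 5 clonotypes. Named J genes were those called on one side in all 3 libraries and pseudogenes, and named clonotypes the 3 largest per library and any among the 10 largest of all 3. Members and lists were chosen with earlier results of these data known. Gene names, older names and biotypes were matched to RefSeq (0 unmatched). Alternatives counted clonotypes with 2 or more reads, 1 kind of nonproductive clonotype, or reads. Others left out near copies, shared clonotypes or CDR3s under 20 bases. The alternatives without 6 V genes, with near copies at 2 times the reads, and of sharing over 10 reads were chosen after seeing the data. So was the count of near copies of a clonotype of either class with at least 10 times the reads. Python 3.11.15, SciPy 1.17.1, statsmodels 0.14.6 and pandas 2.3.3 were used, and the scripts were tested on simulated data.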

Additional observations from a re-analysis of the deposited data

Results flagged for a closer look

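The ratio of nonproductive to productive use differed between the 3 libraries for 14 V genes, by a likelihood-ratio chi-square test in a logistic model with Benjamini-Hochberg adjustment. The adjusted p was 6.81e-37 for TRBV16, 1.03e-32 for TRBV4, 1.77e-13 for TRBV13-1, 7.79e-11 for TRBV12-2, 2.08e-10 for TRBV14 and 5.58e-10 for TRBV12-1. It was 1.85e-07 for TRBV2, 8.24e-07 for TRBV13-3, 9.61e-05 for TRBV5, 0.000265 for TRBV3, 0.00137 for TRBV17, 0.00151 for TRBV31, 0.00501 for TRBV20 and 0.0169 for TRBV1. TRBV14 lay on different sides of 1, with ratios of 1.65 in CD4 and 0.615 in CD8, and TRBV2 did as well, with 0.699 in CD4, 1.44 in CD8 and 1.54 in the DN library.

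Among J genes the ratio differed by the same chi-square test for TRBJ2-7 (adjusted p = 6.59e-07), at 1.19 in CD4, 1.16 in CD8 and 0.936 in the DN library, and for TRBJ1-2 (adjusted p = 0.000565), at 0.864, 1.03 and 1.36, which was 2 of 12 J genes (16.7%). All 3 D classes (100%) differed, TRBD2 with an adjusted p of 4.4e-18, TRBD1 with 6.13e-10 and clonotypes without a D with 0.0241. These tests compare 3 libraries of 1 mouse, so that library and subset cannot be told apart.

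The few TRA clonotypes, which entered no comparison, held nonproductive rearrangements as well: 4 of 82 in CD4 (4.88%, 95% Wilson interval 1.91 to 11.9%), 7 of 100 in CD8 (7.0%, 3.43 to 13.7%) and 5 of 78 in DN T cells (6.41%, 2.77 to 14.1%), each of a single read.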

How the results depend on the processing

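The excess of single reads among nonproductive clonotypes kept direction and call under every alternative that contains single reads. Among clonotypes with 2 or more reads, the share with exactly 2 was compared instead, at ratios of 1.26, 1.21 and 1.19 in CD4, CD8 and DN T cells, each called. Lower sharing in DN T cells kept direction and call under every alternative, and in CD4 under all except over 10 reads (ratio 0.999, exact p = 1). The number of V genes called moved by at most 1.5 times except with in-frame stops alone, when 6, 4 and 7 were called in CD4, CD8 and DN T cells. The nonproductive share was 5.05%, 2.64% and 5.90% at 2 or more reads, 5.18%, 3.74% and 4.71% of reads, 7.42%, 4.58% and 8.46% for out-of-frame clonotypes alone, 0.477%, 0.346% and 0.604% for in-frame stops alone, 8.46%, 5.11% and 10.4% without shared clonotypes, and 6.88%, 4.48% and 7.64% without near copies at 2 times the reads. Without near copies at 10 times the reads it was 7.55% in CD4 and 8.41% in DN T cells. Near copies were 19.8%, 17.1% and 23.4% of nonproductive clonotypes at 2 times the reads. In CD4 they were 6.25% when the clonotype with at least 10 times the reads could be of either class.

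Directions of called values turned in these cases, and the cause was not tested. Long CDR3s in DN T cells were at 0.902 with 2 or more reads and 0.757 by reads. TRBD2 in DN T cells was at 0.875 with 2 or more reads, 0.910 without near copies at 2 times the reads and 0.801 by reads, and TRBD2 in CD4 at 0.964 for in-frame stops alone. With 2 or more reads, clonotypes without a D in CD4 were at 1.09, TRBJ1-6 in CD8 at 1.28 and TRBJ1-1 in DN T cells at 1.18; J genes and clonotypes without a D were compared one by one in this setting alone. The TRBJ1 cluster as a whole was compared under no alternative. Sharing in CD8 was at 1.03 with 2 or more reads, TRBV29 in CD4 at 1.22 for in-frame stops alone and TRBV21 in DN T cells at 0.70 by reads.

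Calls were lost for long CDR3s in CD8 at 2 or more reads (1.22) and in DN T cells without near copies at 2 times the reads (1.13), and for TRBD2 in CD8 at 2 or more reads (1.07) and with in-frame stops alone (1.08), and in DN T cells with in-frame stops alone (1.03) and without near copies (1.03). Calls were gained for short CDR3s in CD8 at 2 or more reads (1.46) and without near copies at 2 times the reads (1.20). By reads, the ratio of short CDR3s was 2.70, 1.51 and 2.46 in CD4, CD8 and DN T cells. The 16-base TRBV4 TRBJ2-1 clonotype alone held 357 of 6645, 164 of 5332 and 323 of 8628 out-of-frame reads. These ratios were not computed without it. By reads the ratio of long CDR3s was 1.27 in CD4 and that of TRBD2 1.18 in CD4 and 1.18 in CD8. J genes called were 0 in CD4 (1 at an unadjusted p under 0.05 by Fisher's exact test) and 1 in CD8 at 2 or more reads, and 0, 0 and 0 with in-frame stops alone (2, 2 and 0 unadjusted). V genes that differed between libraries were 8 of 16 tested at 2 or more reads (50%), against 14 of 24 (58.3%). Of the 335 tested values of single V genes under the alternatives, 298 kept direction and call, 36 lost the call and 1 is the reversal of TRBV29. By reads no test was run, so that no V or J genes could be called, and of 45 values of single V genes 20 lay within the interval of the value by clonotypes, 24 lay outside it and 1 is the reversal of TRBV21.

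No paired analysis was possible because each subset has 1 library. Depth limits the rare V genes: TRBV21 and TRBV22 rest on at most 22 nonproductive clonotypes per library.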
